A study of Mus musculus with 4 samples.

Results

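The genes described here encode the translation initiation and elongation factors, the proteins that start and extend polypeptide chains on the ribosome, in group 2 innate lymphoid cells (ILC2s) treated with deoxycholic acid (DCA). Genes were taken by symbol, as every row of the deposited count table whose name begins Eif1 to Eif6, Eef1 or Eef2, leaving out the eIF2 kinase genes (Eif2ak), Eif2s1 and rows marked as pseudogenes. This gave 65 genes of the 27179 rows in the table. DCA is a secondary bile acid made by gut bacteria, and the study asked how it acts on ILC2s, which lack antigen receptors and secrete IL-5, IL-13 and other type 2 cytokines. ILC2s were sorted from the large intestine (labelled colon) of WT C57BL/6 mice, for which one part of the methods gives both sexes at 6 to 8 weeks of age but also males only for this strain, and another gives either sex up to 14 weeks, and both treatment groups share a 5-day culture with 4 cytokines at 10 ng/mL each, IL-2 and IL-7 together with IL-25 and IL-33. Cells then received 100 μM DCA (2 libraries) or served as controls (labelled Ctrl and called vehicle here, 2 libraries). The RNA-Seq methods describe the controls only as cells without DCA. Treatment lasted 16 hours according to the deposited design text and 24 hours according to the methods. Nothing states that the libraries of a treatment came from separate mice or cultures, so the p-values measure only the spread between these libraries, which may be technical.

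Translation starts when eIF2 brings the initiator tRNA to the small ribosomal subunit, eIF3 and the eIF1 proteins hold that subunit ready to scan, and the eIF4 proteins bind the mRNA cap and unwind the leader. The eIF4E-binding proteins compete with eIF4G for eIF4E and are switched off by the growth-sensing kinase mTORC1, while eIF2B recharges eIF2 and is the step blocked when eIF2α is phosphorylated under stress. Elongation factors eEF1A and eEF2 then deliver each aminoacyl-tRNA and move the ribosome along. Activated lymphocytes are known for a large translation apparatus, and mRNAs of this apparatus are among the most abundant in growing cells.

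Library totals ran from 26564059 to 35838342 counts in 3 libraries and reached 244165712 in DCA replicate 2, and between 12302 and 15592 genes had a count. Across genes, which are not independent replicates, log2(CPM + 1) had a Pearson r of 0.873 for the vehicle pair, 0.932 for the DCA pair and 0.884 to 0.915 between treatments, CPM being TMM-scaled counts per 1e6. A count of 0 allows up to 3 counts, or 0.0125 to 0.115 CPM, and this limit covers counting error only. The ILC2 markers summed to between 7659 and 8045 CPM, and 9 of 10 or all 10 were counted in each library, the exception being Thy1 at 0 in vehicle replicate 2. Markers of T cells summed to 17.0 to 38.7 CPM with Cd4 and Cd8a at 0 in every library. The B cell markers Cd79a, Cd79b and Ms4a1 summed to 47.2 to 55.1 CPM under vehicle and 37.7 to 44.5 CPM under DCA. Cd79a and Ms4a1 were at 0 in both vehicle libraries, Ms4a1 in DCA replicate 1 and Cd79a in DCA replicate 2. Those of epithelial cells summed to 7.24 to 13.5 CPM with Krt20 at 0, and those of ILC3s to 0 to 1.48 CPM. Markers of mast cells and basophils summed to 159 to 362 CPM. Of these, Fcer1a was at 0 in every library, Cpa3 in both vehicle libraries and Mcpt8 in DCA replicate 2. Kit was the only marker of this list counted in every library. Macrophage and monocyte markers summed to 23.97 to 24.48 CPM under vehicle and 7.30 to 10.2 CPM under DCA, with 1 to 3 of 5 markers counted in a library and Csf1r and Cd14 at 0 in all. The part of these other cell types in the values below was not tested. In such bulk libraries, fewer cells of a type and less RNA per cell cannot be told apart.

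Of the 65 translation factor genes, 60 averaged at least 1 CPM and were tested for DCA against vehicle. In most of them a replicate pair was further apart than the treatment means, though single libraries vary more than means do. None passed an adjusted p of 0.05 (edgeR's quasi-likelihood test, Benjamini-Hochberg adjustment over all 11184 genes tested), nor did any other gene, so that the background share was 0.0%. At an unadjusted p under 0.05 there was 1 member, Eif4e3, against 4.27% of all genes tested (478 genes). The smallest adjusted p of any member was 0.999. In 7 members both DCA libraries exceeded both vehicle libraries, a smaller share than the 18.6% of all genes tested that showed this order. For 9 members both DCA libraries were below both vehicle libraries, close to the 14.7% of all genes tested. The other 44 members overlapped between treatments. With 2 libraries against 2, a two-sided exact permutation test cannot give a p below 0.333.

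**Figure D1:**
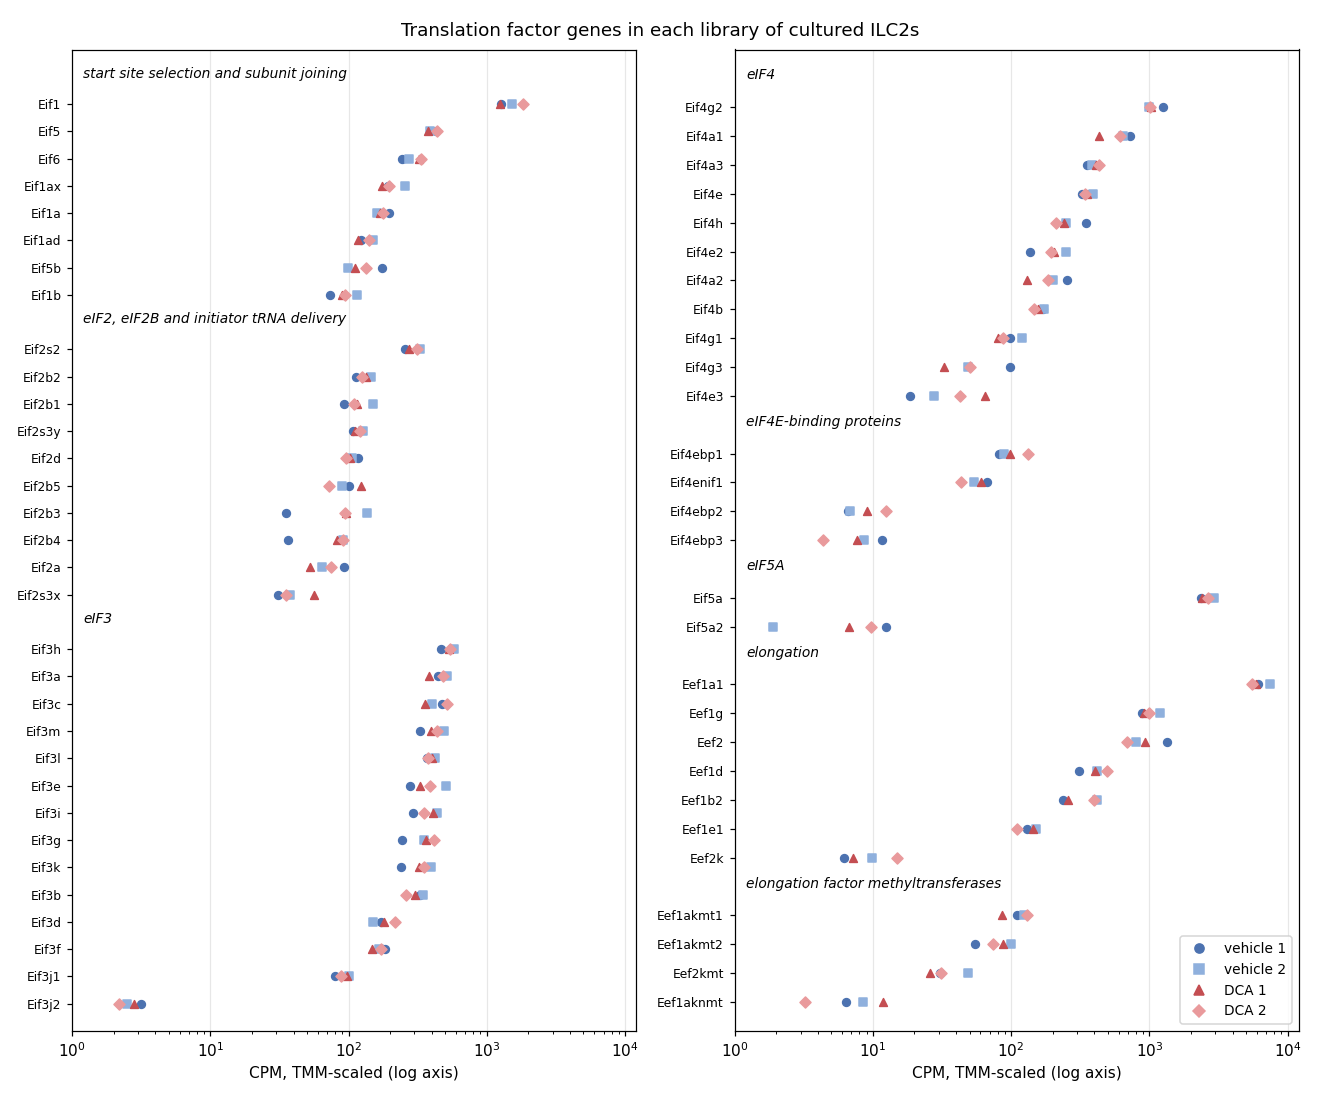
CPM after TMM scaling (log axis) of the 60 tested translation factor genes, 1 symbol per library, grouped by role and ordered by mean level within each group. Levels span from Eef1a1, at 5524 to 7450 CPM, down to Eif3j2, whose highest library is at 3.17 CPM. The 4 symbols of most genes lie close together only beside this wide log axis. In 50 of 60 members a replicate pair was further apart than the treatment means, a count that runs high because single libraries vary more than means.

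The family divided into 25 members with a log2 fold change above 0 and 35 below, with a median of -0.027 beside 0.0080 over all genes tested. Sizes of change were small beside all genes tested, but replicate differences were smaller in the members as well. The median size of the log2(CPM + 1) difference was 0.33 within the vehicle pair and 0.21 within the DCA pair, beside 0.56 and 0.41 over all genes tested. The median size of the log2 fold change was 0.16 for the members and 0.38 for all genes tested, and 55 of 60 members (91.7%) were under 0.5 in either direction, beside 60.2% of all genes. The gap was smaller among abundant genes. Among the 51 members that average 50 CPM or more the median size was 0.14 and 96.1% were under 0.5, beside 0.21 and 85.7% for the 3795 genes at that level. A single member, Eif4e3, exceeded 1, while 18.2% of all genes tested did. For 43 of 60 members the limma 95% interval of the log2 difference lay wholly between -1 and 1. The matching share of all genes tested was not computed, so this count does not set the family apart. These intervals measure only the spread between these libraries, which may be technical.

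**Figure D2:**
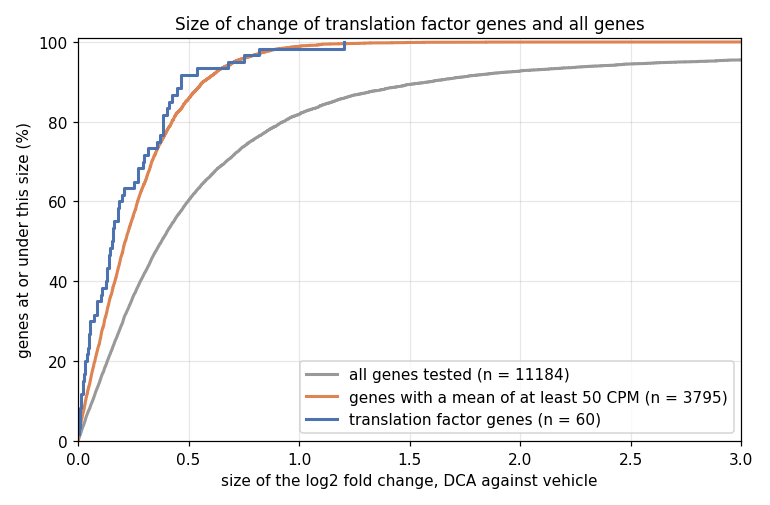
Cumulative share of genes (y axis, percent) at or under each size of log2 fold change between DCA and vehicle (x axis), for 60 translation factor genes, all 11184 genes tested and the 3795 genes that average 50 CPM or more. The axis ends at a size of 3, where some genes of the whole table still lie beyond it. At 0.5 the curves reach 91.7% for the translation factor genes, which include 9 that average under 50 CPM, 85.7% for the genes at 50 CPM or more, and 60.2% for all genes.

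Replicate spread was wide beside the treatment differences. In 50 of 60 members either the vehicle pair or the DCA pair was further apart than the treatment means, the vehicle pair in 45 and the DCA pair in 36. Single libraries vary more than means, and either pair could count, so this number runs high even without a treatment effect. The matching share of all genes tested was not computed. Over those genes too, the median size of the log2(CPM + 1) difference was larger within the pairs (0.56 vehicle, 0.41 DCA) than between treatment means (0.35). Vehicle replicate 1 was the lower of the vehicle pair in 41 members, a count whose share over all genes tested was not computed. Across the 60 members, the log2 difference of vehicle replicate 2 from vehicle replicate 1 had a Pearson r of -0.29 and a Spearman rho of -0.31 with log2 exon length, so that longer genes tended to be relatively lower in replicate 2. The corresponding values for DCA minus vehicle were -0.037 and -0.11. These are descriptions across genes measured in the same libraries, and over 10590 genes the vehicle values were -0.094 and -0.13.

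**Figure D3:**
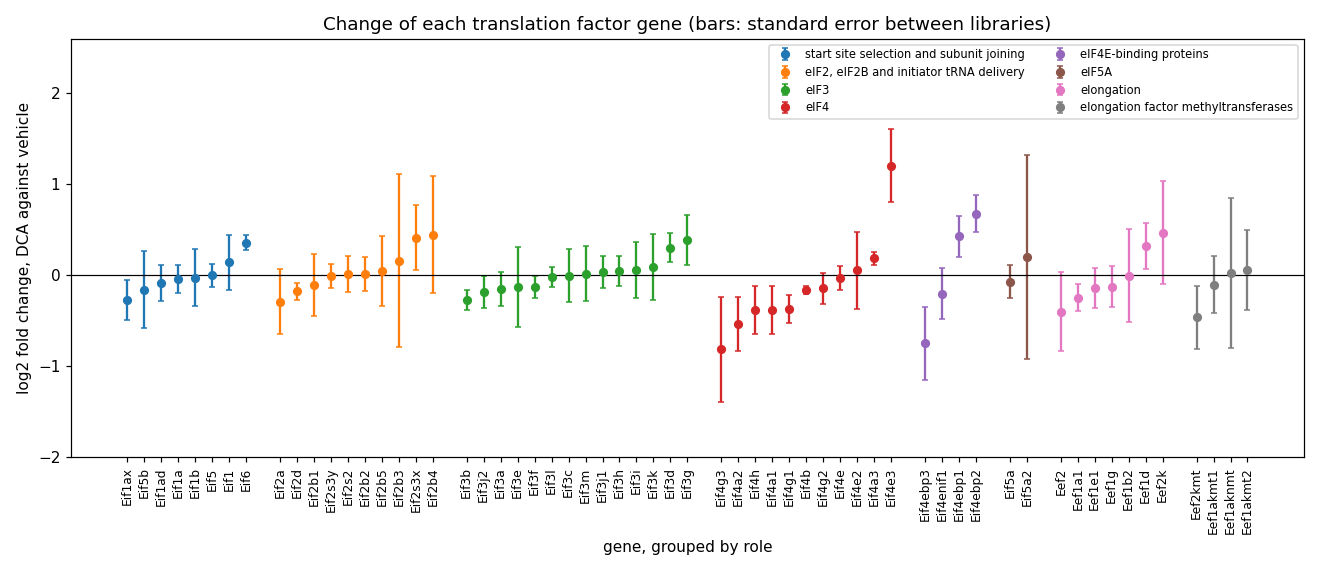
Log2 fold change of DCA against vehicle (y axis) for each tested translation factor gene (x axis), coloured and ordered by role. Points are edgeR estimates and bars are standard errors, computed on log2(CPM + 1) over 2 libraries per treatment. Eif4e3, at 1.20, is the only point above 1, and no point falls below -1.

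Levels between genes can be compared only per length, as CPM per kb of exon. Eef1a1, the carrier of aminoacyl-tRNA, was at 3413 and 4153 CPM per kb in vehicle replicates 1 and 2 and 3275 and 3079 in DCA replicates 1 and 2, a mean of 3480. Eif1, which guards the choice of the start codon, followed at 957, 1160, 949 and 1385 CPM per kb in the same order, and Eif5a, whose product frees ribosomes stalled at proline runs, at 986, 1244, 1009 and 1113. The ranges of Eif1 and Eif5a overlap, so their order was not resolved, whereas Eef1a1 was above both in every library. Together the family took 2.36% and 2.61% of all counts in the vehicle libraries and 2.26% and 2.34% in the DCA libraries. This share was lower in both DCA libraries (two-sided exact permutation p = 0.333). Eef1a1 alone made up 26.5% and 28.2% of the family's counts with vehicle and 26.2% and 23.3% with DCA, also lower in both DCA libraries (exact p = 0.333), and without Eef1a1 the summed family level overlapped, at 17013 and 18988 CPM under vehicle and 16588 and 18177 CPM under DCA (exact p = 0.667).

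Among the 8 genes for start site selection and subunit joining, the median log2 fold change was -0.040. In both DCA libraries 1 was higher and none was lower, beside 18.6% and 14.7% of all genes tested. Eif6 (Entrez gene 16418; chromosome 2 from 155819837 to 155826925 on mm10) encodes the factor that keeps the large ribosomal subunit from joining too early. It was at 243 and 272 CPM in vehicle replicates 1 and 2 and at 324 and 336 CPM in DCA replicates 1 and 2. Replicates lay close together and the treatments did not overlap, with a log2 fold change of 0.36 (SE 0.085, n = 2 libraries per treatment) and an unadjusted edgeR p of 0.139. Eif1 itself was at 1266 and 1534 CPM under vehicle and 1255 and 1831 CPM under DCA, the DCA values lying on both sides of the vehicle pair. Its paralog Eif1b was at 74.1 and 115 CPM under vehicle and 89.9 and 94.8 CPM under DCA, and per kb Eif1 exceeded it by 10.5 to 15.1 times. The scanning factor eIF1A has an autosomal gene, Eif1a, at 197 and 160.4 CPM under vehicle and 168 and 178 CPM under DCA, and an X-linked copy, Eif1ax, at 193 and 256 CPM under vehicle and 175 and 197 CPM under DCA. Per kb the copies were alike, with means of 42.2 and 39.7, and both overlapped between treatments. Eif5, which triggers GTP hydrolysis by eIF2, had a log2 fold change of -0.0044, among the nearest to 0 in the family.

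The 10 genes of eIF2, its exchange factor eIF2B and initiator tRNA delivery had a median log2 fold change of 0.0097. In both DCA libraries none was higher and 1 was lower, beside 18.6% and 14.7% of all genes tested. That gene was Eif2d, which can place an initiator tRNA without eIF2, at 118 and 106 CPM under vehicle and 103 and 95.1 CPM under DCA (log2 fold change -0.18, SE 0.092). The eIF2β gene Eif2s2 was the most abundant of the group per kb and stood at 258 and 327 CPM under vehicle and 275 and 314 CPM under DCA. The DCA values fell between the vehicle values. The eIF2γ subunit has an X-linked gene, Eif2s3x (Entrez gene 26905; chromosome X from 94188709 to 94212651), and a Y-linked gene, Eif2s3y (Entrez gene 26908; chromosome Y from 1010562 to 1049134). Eif2s3y was at 107 and 126 CPM under vehicle and 111 and 121 CPM under DCA, a log2 fold change of -0.013. Eif2s3x was at 31.1 and 38.0 CPM under vehicle and 56.6 and 35.3 CPM under DCA, so that DCA replicate 1 alone stood above the others (log2 fold change 0.41, SE 0.36, unadjusted edgeR p of 0.343). Per kb the Y-linked copy exceeded the X-linked one by 6.98 and 6.75 times with vehicle and by 3.98 and 6.91 times with DCA (exact p = 0.667). Their coding sequences are 86.3% identical, with a longest shared run of 34 bases. As a check on the animals, Xist had 0 counts in every library, and the Y-linked genes Ddx3y, Uty and Kdm5d were counted in all.

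For eIF2B, the subunit genes Eif2b1, Eif2b2 and Eif2b5 had log2 fold changes between -0.11 and 0.043. Eif2b3 and Eif2b4, whose products belong to the catalytic and the regulatory part of the complex, respectively, were low in a single library. Eif2b3 was at 35.6 CPM in vehicle replicate 1 and 135 CPM in vehicle replicate 2, with 96.2 and 94.5 CPM in the DCA libraries. Eif2b4 was at 36.6 and 90.9 CPM under vehicle and 82.6 and 91.0 CPM under DCA. These genes were named after their values were seen. Within each library the highest eIF2B subunit gene per kb exceeded the lowest by 7.93 times in vehicle replicate 1 and by 2.70 to 3.49 times in the other 3 libraries.

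All 14 genes of eIF3, the largest initiation factor and the platform that recruits mRNA to the small subunit, were tested. Their median log2 fold change was 0.0036, and all 14 were under 0.5 in size. In both DCA libraries 2 members were higher and 1 was lower, beside 18.6% and 14.7% of all genes tested. Eif3g (Entrez gene 53356; chromosome 9 from 20894349 to 20898590), an RNA-binding subunit, was at 244 and 350.3 CPM under vehicle and 364 and 413 CPM under DCA. The vehicle libraries were further apart than the nearest libraries of opposite treatment, and the log2 fold change was 0.39 (SE 0.28, unadjusted edgeR p of 0.179), or 0.12 without vehicle replicate 1 and 0.67 without vehicle replicate 2. Eif3d (Entrez gene 55944; chromosome 15 from 77958998 to 77970824), a subunit that can itself bind the cap of some mRNAs, was at 172 and 149.8 CPM under vehicle and 180.2 and 215 CPM under DCA (log2 fold change 0.30, SE 0.16, unadjusted edgeR p of 0.247). Lower in both DCA libraries was Eif3b (Entrez gene 27979; chromosome 5 from 140419305 to 140443358), the scaffold of the core, at 330.3 and 346 CPM under vehicle and 300.3 and 260.2 CPM under DCA (log2 fold change -0.27, SE 0.11, unadjusted edgeR p of 0.245). Eif3h was the most abundant eIF3 gene per kb and stood at 464 and 580.1 CPM under vehicle and 536 and 541 CPM under DCA, both DCA values inside the vehicle range. Leaving out Eif3j1 and Eif3j2, the highest eIF3 gene per kb exceeded the lowest by 4.93 to 7.01 times in a library.

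The loosely bound eIF3j subunit is encoded by Eif3j1 and Eif3j2, and their aligned coding sequences are identical at all 783 aligned bases apart from a gap, with an exact shared run of 781 bases. Their counts, 80.4 and 101.2 CPM under vehicle and 97.5 and 88.2 CPM under DCA for Eif3j1, and 3.17 and 2.52 CPM under vehicle and 2.81 and 2.198 CPM under DCA for Eif3j2, are therefore uncertain, since the way reads were divided between the copies is not given in the sources used here. Eif4a3 and its copy Eif4a3l1, 96.2% identical with a shared run of 119 bases, raise the same doubt. Eif4a3l1 had 0 counts in both vehicle libraries, 4 in DCA replicate 1 and 26 in DCA replicate 2. Eif4a3 had between 10148 and 104509 counts in a library, so the doubt bears on the copy rather than on Eif4a3.

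The eIF4 group, which binds the cap and unwinds the mRNA leader, held the extremes of the family. Of 13 genes 11 were tested, with 2 higher and 5 lower in both DCA libraries, beside 18.6% and 14.7% of all genes tested, and a median log2 fold change of -0.16. The group's count was not tested against that share. Its summed level was 3790 and 3478 CPM under vehicle and 3138 and 3321 CPM under DCA, lower in both DCA libraries (exact p = 0.333).

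Eif4e3 (Entrez gene 66892; chromosome 6 from 99621879 to 99692873) encodes a divergent relative of the cap-binding protein eIF4E. It was at 18.7 and 27.9 CPM in vehicle replicates 1 and 2 (683 and 730 counts) and at 64.4 and 42.7 CPM in DCA replicates 1 and 2 (2084 and 10277 counts). The DCA libraries were the highest 2 of the 4. Its log2 fold change was 1.20 (SE 0.40, n = 2 libraries per treatment), and the edgeR test gave p-values of 0.0285 unadjusted and 0.999 adjusted. The limma 95% interval ran from 0.18 to 2.16. Of all genes tested, 2.54% were higher with DCA at an unadjusted p under 0.05, so 1 such gene among 60 is a share no larger than the background. The log2 fold change stayed above 0 without any 1 library, at 0.91 without vehicle replicate 1, 1.52 without vehicle replicate 2, 0.87 without DCA replicate 1 and 1.47 without DCA replicate 2, with unadjusted edgeR p-values of 0.0723, 0.0121, 0.228 and 0.0502. Each of these fits leaves 1 treatment with 1 library, which is assumed to vary like the other treatment.

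The principal cap-binding gene, Eif4e, had a log2 fold change of -0.029 (limma 95% interval -0.53 to 0.48), and Eif4e2, a relative linked to repression of some mRNAs, was at 0.051. As a share of the summed level per kb of the eIF4E genes, Eif4e3 made up 8.32% and 9.24% with vehicle and 20.9% and 15.4% with DCA (exact p = 0.333). Eif4e remained the most abundant of the eIF4E genes per kb in every library. Eif4e3 shares 54.4% of aligned coding bases with Eif4e and no exact run longer than 9 bases.

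**Figure D4:**
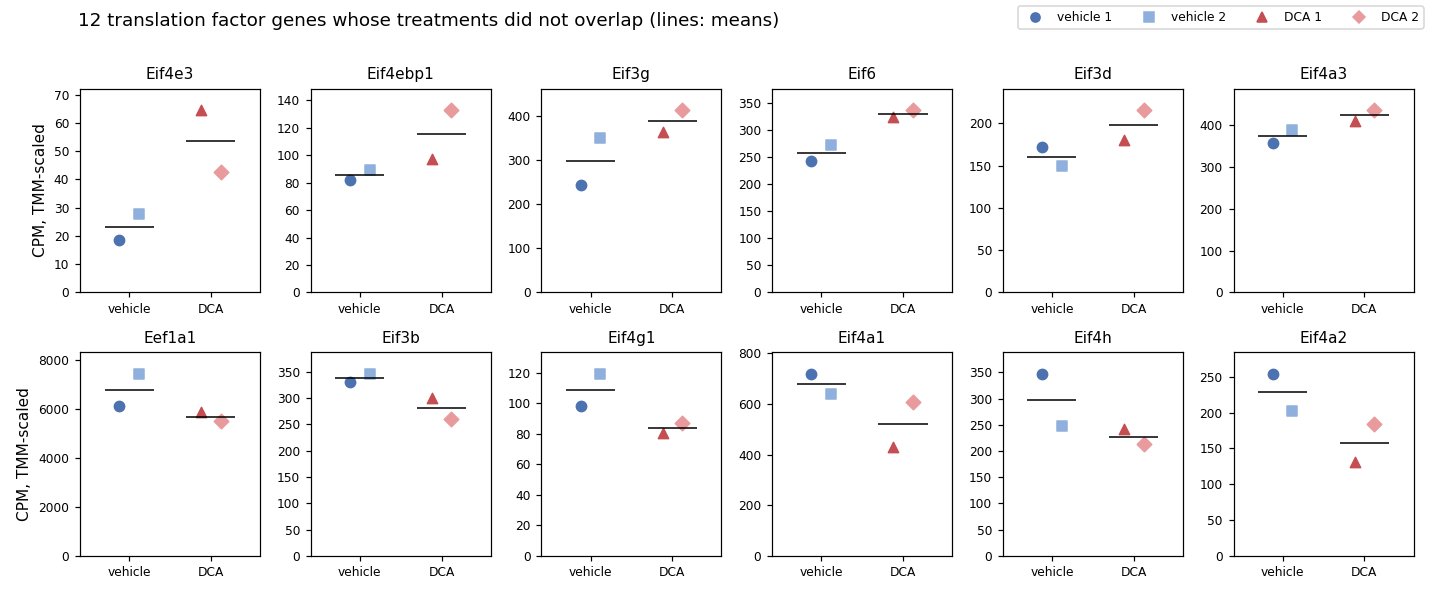
CPM after TMM scaling (y axis, from 0) in each of the 4 libraries for 12 of the members whose vehicle and DCA libraries did not overlap, 6 higher (top) and 6 lower (bottom) with DCA, chosen by smallest unadjusted p. Lines are treatment means. The gap between treatments is widest for Eif4e3 relative to its level. For several genes, among them Eif3d, Eif3g, Eif4a1, Eif4h and Eef1a1, the nearest libraries of opposite treatment almost touch.

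The eIF4A helicases unwind the leader, and both main copies were lower with DCA without passing the test. Eif4a1 (Entrez gene 13681; chromosome 11 from 69666936 to 69672423) was at 719 and 641 CPM under vehicle and 432 and 609 CPM under DCA, a log2 fold change of -0.39 (SE 0.26, unadjusted edgeR p of 0.162). Eif4a2 (Entrez gene 13682; chromosome 16 from 23107468 to 23114132) was at 254 and 202 CPM under vehicle and 130.5 and 183 CPM under DCA, a log2 fold change of -0.54 (SE 0.29, unadjusted edgeR p of 0.0934). DCA replicate 1 was the lowest library for both genes. Their ratio per kb, Eif4a2 over Eif4a1, was 0.196 and 0.175 with vehicle and 0.168 and 0.167 with DCA (exact p = 0.333). The third eIF4A gene, Eif4a3 (Entrez gene 192170; chromosome 11 from 119288363 to 119300043), whose product marks exon junctions rather than unwinding leaders, went the other way, at 357 and 387 CPM under vehicle and 410.1 and 434 CPM under DCA (log2 fold change 0.18, SE 0.072, unadjusted edgeR p of 0.403).

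Among the helpers and partners of the helicase, Eif4b, Eif4g1 and Eif4h were lower in both DCA libraries. Eif4h (Entrez gene 22384; chromosome 5 from 134619872 to 134639409), an eIF4A-stimulating protein, was at 347 and 248 CPM under vehicle and 242 and 213 CPM under DCA (log2 fold change -0.39, SE 0.26, unadjusted edgeR p of 0.178). Its vehicle replicate 2 was barely above DCA replicate 1. Eif4b, another stimulator, was at 170.0 and 172 CPM under vehicle and 157 and 148 CPM under DCA, a tight pair in each treatment, with a log2 fold change of -0.16 (SE 0.047, unadjusted edgeR p of 0.490). The scaffold gene Eif4g1 (Entrez gene 208643; chromosome 16 from 20672720 to 20692883) was at 98.1 and 119 CPM under vehicle and 80.7 and 87.1 CPM under DCA (log2 fold change -0.37, SE 0.15, unadjusted edgeR p of 0.206). Its relative Eif4g3 had the lowest log2 fold change of the family, -0.82 (SE 0.58, unadjusted edgeR p of 0.114), and was picked out after its values were seen. Eif4g3 was at 98.2 CPM in vehicle replicate 1 but at 48.9 CPM in vehicle replicate 2, and at 32.8 and 50.6 CPM under DCA, so the treatments overlapped and vehicle replicate 1 alone stood apart.

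Of the 6 plotted members lower with DCA, Eif4a1, Eif4g1 and Eif4h had an E box (CACGTG, the same on both strands), the letters bound by MYC and related factors. Eif3b, Eif4a2 and Eef1a1 had none in their promoters. The choice of genes did not use this feature. Each promoter below runs from 250 bases before to 50 bases after a RefSeq start site on GRCm38.p6, is written 5′ to 3′ on the gene's strand, and has the E box in capitals. These are the promoters, among the 12 plotted members, in which a searched motif was found.
Eif4a1 (chr11:69672374-69672673, minus strand): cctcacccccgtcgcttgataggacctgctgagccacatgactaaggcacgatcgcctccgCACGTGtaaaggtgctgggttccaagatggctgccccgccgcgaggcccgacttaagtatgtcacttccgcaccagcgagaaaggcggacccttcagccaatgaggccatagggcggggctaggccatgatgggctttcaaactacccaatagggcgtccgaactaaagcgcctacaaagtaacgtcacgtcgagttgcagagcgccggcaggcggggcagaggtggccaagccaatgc
Eif4g1 (chr16:20672477-20672776, plus strand): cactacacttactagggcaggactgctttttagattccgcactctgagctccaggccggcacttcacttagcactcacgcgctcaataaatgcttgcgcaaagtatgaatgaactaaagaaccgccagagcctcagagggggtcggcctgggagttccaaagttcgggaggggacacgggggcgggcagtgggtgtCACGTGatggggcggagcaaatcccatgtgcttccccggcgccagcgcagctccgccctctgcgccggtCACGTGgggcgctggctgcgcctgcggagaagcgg
Eif4h (chr5:134639360-134639659, minus strand): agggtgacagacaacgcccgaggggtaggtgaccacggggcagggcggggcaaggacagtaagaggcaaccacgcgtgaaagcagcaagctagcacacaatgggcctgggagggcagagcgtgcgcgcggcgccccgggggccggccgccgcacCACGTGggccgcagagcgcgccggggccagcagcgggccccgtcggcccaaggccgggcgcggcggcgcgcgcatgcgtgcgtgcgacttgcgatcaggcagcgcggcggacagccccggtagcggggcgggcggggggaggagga
The first base of the E box lies at -189 in Eif4a1, at -54 and 15 in Eif4g1 and at -96 in Eif4h, counting the start site as 0. Of the 49 members with a promoter in the RefSeq table, 13 (26.5%) hold an E box in a window of this length, beside 12.3% of 8806 tested genes with a promoter, 8.91% of protein-coding genes and 8.09% of all genes in the table. The other 10 were Eif1b, Eif3a, Eif3f, Eif3k, Eif4e, Eif5a, Eif5a2, Eef2, Eef2k and Eef1aknmt. The 13 members with an E box had log2 fold changes from -0.40 to 0.47, median -0.072. In both DCA libraries 3 were lower and none was higher, beside 14.7% and 18.6% of all genes tested, with or without a promoter entry. The 3 lower ones were Eif4a1, Eif4g1 and Eif4h, already shown above. A link between the E box and the change was not tested. The 33 tested members whose promoters lack it had a median of -0.0075, with 5 lower and 4 higher. The core of the C/EBP-ATF response element, TGATGNAA on either strand, was found in 2 of 49 members, Eef2k and Eif2s3x (4.08%, beside 2.67% of tested genes). Eif4e3, Eif4ebp1 and Eif6, higher in both DCA libraries, and Eif4ebp3, lower in both, have no entry in the promoter table. The counts above leave these genes out. A match describes letters in a window and is not evidence of binding.

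The eIF4E-binding proteins hold eIF4E away from eIF4G. All 4 genes of this group were tested, with a median log2 fold change of 0.11. In both DCA libraries 2 were higher and 1 was lower, beside 18.6% and 14.7% of all genes tested. The group's count was not tested against that share. Eif4ebp1 (Entrez gene 13685; chromosome 8 from 27260327 to 27275656), the most abundant, was at 82.1 and 89.2 CPM under vehicle and 97.5 and 132.5 CPM under DCA. DCA replicate 2 was the highest library, and the log2 fold change was 0.43 (SE 0.23, unadjusted edgeR p of 0.177). Eif4ebp2 lay in the same order at a much lower level, 6.56 and 6.87 CPM under vehicle and 9.09 and 12.4 CPM under DCA (log2 fold change 0.68, SE 0.21, unadjusted edgeR p of 0.417). Eif4ebp3 lay in the opposite order, at 11.6 and 8.67 CPM under vehicle and 7.73 and 4.32 CPM under DCA (log2 fold change -0.75, SE 0.41, unadjusted edgeR p of 0.411). Relative to Eif4e per kb, Eif4ebp1 stood at 0.649 and 0.590 with vehicle and 0.703 and 0.991 with DCA (exact p = 0.333). For the 3 binding-protein genes summed, the ratio to Eif4e overlapped, at 0.913 and 0.759 with vehicle and 0.876 and 1.11 with DCA (exact p = 0.667). Eif4enif1, encoding the eIF4E transporter, had a log2 fold change of -0.21.

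Eif5a (Entrez gene 276770; chromosome 11 from 69916712 to 69921958), the carrier of the hypusine residue, was at 2343 and 2956 CPM under vehicle and 2397 and 2645 CPM under DCA. The DCA libraries lay inside the vehicle range, and the log2 fold change of -0.072 had a limma 95% interval from -0.60 to 0.48. Its paralog Eif5a2 was a minor species at 12.4 and 1.91 CPM under vehicle and 6.74 and 9.71 CPM under DCA, where the vehicle libraries held both the highest and the lowest value.

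Among the 8 elongation genes, 7 were tested. In both DCA libraries none was higher and 1 was lower, beside 18.6% and 14.7% of all genes tested. The tested elongation genes had a median log2 fold change of -0.13. Their summed level was 9030 and 10441 CPM under vehicle and 8537 and 8223 CPM under DCA, lower in both DCA libraries (exact p = 0.333). Most of that sum was Eef1a1 (Entrez gene 13627; chromosome 9 from 78478453 to 78481724), at 6123 and 7450 CPM under vehicle and 5875 and 5524 CPM under DCA. The vehicle replicates were further apart than vehicle replicate 1 and DCA replicate 1, and the log2 fold change was -0.25 (SE 0.15, unadjusted edgeR p of 0.212). Its paralog Eef1a2, expressed in muscle and neurons, had 0 counts in all 4 libraries. Eef2 (Entrez gene 13629; chromosome 10 from 81176631 to 81182509), the translocase, was at 1332 and 796 CPM under vehicle and 927 and 685 CPM under DCA. Vehicle replicate 2 lay between the DCA libraries, and the log2 fold change was -0.40 (SE 0.43, unadjusted edgeR p of 0.236). The gene of its inhibitory kinase, Eef2k, was low throughout, at 6.18 and 9.85 CPM under vehicle and 7.14 and 15.0 CPM under DCA. The eEF1B subunit genes Eef1b2, Eef1d and Eef1g, which recharge eEF1A, had log2 fold changes of -0.0055, 0.32 and -0.13 and overlapped between treatments, as did Eef1e1 at -0.14. Eef2, Eef2k and these subunits were outside the naming rule.

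Of the 5 genes for methyltransferases of the elongation factors, 4 were tested and all 4 overlapped between treatments, with a median log2 fold change of -0.042. The most abundant per kb, Eef1akmt1, was at 110.3 and 124 CPM under vehicle and 86.3 and 131 CPM under DCA, DCA replicate 1 being lowest and DCA replicate 2 highest. Eef1akmt3 had 4 counts in vehicle replicate 1 and 0 in the other libraries. With Eef1a2 and Eif4a3l1, given above, Eif4e1b (17 counts in DCA replicate 2 and 0 elsewhere) and Eif2c5 (0 in all, a symbol of the Argonaute family taken in by its letters and not a translation factor), it completes the 5 members below 1 CPM. No member was at or under 3 counts in both libraries of one treatment and above 30 counts in a library of the other.

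Beyond the family, a list of 39 other genes that serve translation (release and recycling factors, poly(A)-binding proteins, 43S loading factors, hypusine and diphthamide enzymes, mTORC1 and MNK control, GCN2 partners, selenocysteine insertion and ribosome dormancy) was read from the same fit. All 39 were tested and none passed an adjusted p of 0.05, with 4 higher and 11 lower in both DCA libraries (18.6% and 14.7% of all genes tested) and a median log2 fold change of -0.12. At an unadjusted p under 0.05 there were 3, beside 4.27% of all genes tested. Gspt2, a release factor gene, had 0 counts in both vehicle libraries, 220 in DCA replicate 1 and 494 in DCA replicate 2 (unadjusted edgeR p of 0.0150). Taking 3 counts per library as the limit for a count of 0, its DCA mean was 45.1-fold that limit, or 20.9-fold by DCA replicate 2 alone. This limit covers counting error only and not the spread between libraries. A 0 also occurred beside a high count within a treatment, as for Arhgef4, with 199 and 0 counts under vehicle and 214 and 0 under DCA. Eefsec, the elongation factor for selenocysteine, was at 31.8 and 29.7 CPM under vehicle and 53.5 and 65.6 CPM under DCA, with a log2 fold change of 0.95 (SE 0.15, unadjusted edgeR p of 0.0299). Ddx3x, an X-linked helicase that helps initiation on structured leaders, was at 174 and 155 CPM under vehicle and 89.2 and 116 CPM under DCA, with a log2 fold change of -0.68 (SE 0.20, unadjusted edgeR p of 0.0380). Each of these 3 genes had an adjusted edgeR p of 0.999.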

How the data were processed

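RNA-Seq of 4 libraries was analysed, 2 vehicle and 2 DCA, grouped by their labels. Full-length cDNA (SMART-Seq HT) was made into Nextera XT libraries by the authors, and paired reads came from a NovaSeq. The submitters' processing notes name cutadapt 1.9, HISAT2 2.2.1 and mm10. The counting tool, annotation and strand setting are not given in the sources used here, so overlapping or near-identical genes are uncertain. The table deposited by the authors holds integer read counts for each gene, despite a file name that mentions FPKM. Of 27179 rows, 1275 have no symbol and hold 0.137% to 0.173% of a library's counts.

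Counts were scaled by TMM and tested with edgeR 4.0.16 in R 4.3.3 (two-sided quasi-likelihood test with Benjamini-Hochberg adjustment) where a gene averaged at least 1 CPM. SEs come from log2(CPM + 1) in the 2 libraries of each treatment. Intervals come from limma 3.58.1, which together with DESeq2 1.42.0, other scalings and filters, the replicate block, thinning of DCA replicate 2 and leaving out each library served as alternatives. The script was tested on simulated data. Exon lengths come from GENCODE vM21, and positions and promoters from RefSeq on GRCm38.p6, the assembly behind mm10. There were 2 libraries per treatment, which limits precision.

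The genes and lists were chosen with earlier results of these data known. Named were members past an adjusted p of 0.05 (none), the 6 in each direction with the smallest unadjusted p whose treatments did not overlap, paralog pairs, the most abundant member of each role per kb, and members at or under 3 counts in one treatment and above 30 in the other (none). Values for other members were picked after they were seen. The human samples, metabolomics and protein experiments of the study were not analysed here. One marker gene is not reported here.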

Additional observations from a re-analysis of the deposited data

How the results depend on the processing

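No translation factor gene passed an adjusted p of 0.05 under any of the 13 alternatives. Over all genes, the calls went from 0 to 128 with DESeq2 and 36 with no filter, and from 0 to 20 without 1 library (20 without vehicle replicate 1); of the 39 other translation genes DESeq2 called 1. Members at an unadjusted p under 0.05 went from 1 to 2 with DESeq2 (Eif4a2, Eif4e3), 2 with no filter (Eif4e3, Eif4g3), and 0 to 6 without 1 library, 6 without vehicle replicate 2 (Eef2, Eif2b3, Eif2b4, Eif3g, Eif4e3, Eif4g3) and 0 without vehicle replicate 1, DCA replicate 1 or DCA replicate 2. The median log2 fold change of the members was lowest without vehicle replicate 1, at -0.17, and highest without vehicle replicate 2, at 0.11. The cause was not tested.

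With the replicate number as a block, 0 members passed an adjusted p of 0.05 and 1 (Eif4e3, log2 fold change 1.20, unadjusted p of 0.0375) an unadjusted one in edgeR. Whether same-numbered libraries were paired is not stated in the sources used here. Their deviations correlated at 0.0197 across genes, which are not independent, in 2 pairs, too few to decide this. Of log2 fold changes of named genes with all libraries kept, 237 of 242 kept their direction, and without 1 library 93 of 108 did. Reversed were Eif1b (0.0013 with limma, 0.0013 with the block) and Eif2s2 (-0.020 with DESeq2, -0.020 with median-of-ratios scaling, -0.0028 with DCA replicate 2 thinned). Without 1 library, values crossed 0 for Eef1akmt1 (-0.44 to 0.16), Eif1 (-0.16 to 0.38), Eif1a (-0.19 to 0.083), Eif1b (-0.34 to 0.32), Eif2s2 (-0.18 to 0.19), Eif2s3y (-0.15 to 0.11), Eif3h (-0.13 to 0.22), Eif3j1 (-0.15 to 0.21), Eif5a (-0.26 to 0.11) and Eif5a2 (-0.59 to 2.08). A further 15 of 27 named genes kept their direction but moved by over 1.5 times. Closest to 0 without vehicle replicate 1 were Eif3g (0.12), Eif4a3 (0.097) and Eif4h (-0.15). Without vehicle replicate 2 these were Eef1a1 (-0.10), Eif1ax (-0.054) and Eif4g1 (-0.22), and without DCA replicate 1 Eif2s3x (0.025), Eif4a1 (-0.16) and Eif4a2 (-0.32). Without DCA replicate 2 they were Eif3b (-0.17), Eif3d (0.17), Eif3j2 (-0.014), Eif4ebp1 (0.19), Eif4ebp2 (0.44) and Eif4ebp3 (-0.39). Eif4e3 and Eif6 stayed within 1.5 times.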
